A study of Homo sapiens with 6 samples.

Results

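The genes described here are 39 interferon-stimulated genes outside antigen presentation, taken by symbol from a table of 26372 genes measured in SH-SY5Y cells. All 39 symbols were found. SH-SY5Y is a human neuroblastoma line with neuron-like (noradrenergic) features, used as a model of neurons. The cells carried a lentiviral short hairpin RNA (shRNA), either against TDP-43 (labelled shT2, 3 libraries, called the knockdown) or a control hairpin (shNC3, 3 libraries, called the control). TDP-43, the product of TARDBP, is a nuclear RNA-binding protein. Per the protocols, TDP-43 knockdown cells were selected with puromycin and kept in it as a stable line, and both arms have the same RNA extraction and poly(A) library protocol. Each arm has a single name in the labels, and nothing in them says that its 3 libraries came from separate cultures or clones, so the p-values rest on library-to-library spread that could be technical alone.

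Interferons are secreted proteins that bind receptors on the same or neighbouring cells. The receptors act through JAK kinases to phosphorylate STAT proteins. STAT2 and IRF9 belong to the complex that binds the interferon-stimulated response element (ISRE) in the promoters of target genes, many of which encode proteins that block the entry, copying or translation of viruses. Double-stranded RNA, also from transposable elements, can start the response through sensors in the cytoplasm. The title of the study names activation of transposable elements, and these genes are a common readout beside it.

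The promoters of the members were compared first, because the ISRE is the sequence that these genes are known for. RefSeq windows of 300 bases (GRCh38.p14, from 250 bases before a gene's start to 50 after it) were at hand for 30 of the 39 members. DHX58, IFIT2, IFITM2, IRF7, MX2, OAS2, OASL, TRIM22 and USP18 had none. The ISRE core (GAAA, any 2 bases, then GAAA), searched on both strands with overlapping matches counted, was in a window of 22 of the 30 members (73.3%). It was in a window of 3.73% of the genes tested for expression below. The gamma-activated site (TTC, any 3 bases, then GAA), the element of the interferon gamma response, was in a window of 9 of 30 members (30.0%) and of 8.77% of tested genes. A match is a description of these letters and not a measured binding site. The stretches below are the 160 bases before the start of 3 members that were higher in the knockdown (IFIT3, BST2 and IFITM3) and of 5 that were lower (ISG15, OAS3, HERC5, PARP14 and SAMD9). They are written 5′ to 3′ in the direction of transcription, with ISRE core matches in capitals.
IFIT3, chr10:89327837-89327996, plus strand: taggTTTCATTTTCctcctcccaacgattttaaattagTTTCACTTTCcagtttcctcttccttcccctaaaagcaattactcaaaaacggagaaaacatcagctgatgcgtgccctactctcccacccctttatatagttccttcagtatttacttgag
BST2, chr19:17405631-17405790, minus strand: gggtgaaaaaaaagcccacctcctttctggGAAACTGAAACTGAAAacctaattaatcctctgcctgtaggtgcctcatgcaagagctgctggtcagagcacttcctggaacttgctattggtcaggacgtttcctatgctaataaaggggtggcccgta
IFITM3, chr11:320861-321020, minus strand: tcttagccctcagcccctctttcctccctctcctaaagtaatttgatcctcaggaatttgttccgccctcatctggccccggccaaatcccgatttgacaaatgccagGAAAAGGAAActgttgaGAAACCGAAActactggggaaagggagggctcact
ISG15, chr1:1013337-1013496, plus strand: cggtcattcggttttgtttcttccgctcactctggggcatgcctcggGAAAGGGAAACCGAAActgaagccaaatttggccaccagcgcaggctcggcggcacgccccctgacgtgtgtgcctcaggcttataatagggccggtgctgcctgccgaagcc
OAS3, chr12:112938314-112938473, plus strand: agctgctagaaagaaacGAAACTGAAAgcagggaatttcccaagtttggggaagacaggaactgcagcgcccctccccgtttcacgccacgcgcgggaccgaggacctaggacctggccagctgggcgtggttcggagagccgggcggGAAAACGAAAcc
HERC5, chr4:88456959-88457118, plus strand: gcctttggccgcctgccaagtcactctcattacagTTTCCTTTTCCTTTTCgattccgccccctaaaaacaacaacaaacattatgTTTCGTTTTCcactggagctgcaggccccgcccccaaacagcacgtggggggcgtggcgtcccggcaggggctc
PARP14, chr3:122680679-122680838, plus strand: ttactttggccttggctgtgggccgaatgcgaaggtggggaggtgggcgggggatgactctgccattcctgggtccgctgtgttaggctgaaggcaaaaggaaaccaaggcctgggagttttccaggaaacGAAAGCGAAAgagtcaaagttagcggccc
SAMD9, chr7:93117980-93118139, minus strand: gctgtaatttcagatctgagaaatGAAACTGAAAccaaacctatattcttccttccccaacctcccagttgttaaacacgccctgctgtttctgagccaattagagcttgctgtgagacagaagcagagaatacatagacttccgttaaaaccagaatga
All 3 members that were called higher held the core, and so did 11 of the 14 called lower. The matches of PARP9 and DTX3L are the same bases read from opposite strands, counted here for both genes. The core was absent from the windows of IRF1, OAS1 and SAMD9L among those called lower, and from those of STAT2 and IRF9, which did not pass the test. An absence means only that these exact letters were not found. The OAS1 window holds GAAACGAAA, which is shorter than the letters searched. In BST2 and HERC5 consecutive matches overlap, as do the matches of ISG15. The core was thus found before members of either direction.

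Levels are in FPKM, a fragment count divided by transcript length and by library size. Read numbers cannot be read from it and the depth is unknown. Steps among the lowest values place the library size used in the scaling at 52.9% to 100% of the largest, with knockdown library 2 the lowest. Its value rests on 53 of 1363 compared genes, those at the commonest step. The targeted gene was checked first. TARDBP stood at 21.9, 20.7 and 20.98 FPKM in the knockdown and at 50.3, 50.3 and 47.7 in the control, and fell by 1.19 on the log2 scale (standard error 0.045, limma adjusted p = 6.69e-08). Permuting the libraries exactly (two-sided) gave p = 0.1, which 3 against 3 cannot go below. Noradrenergic markers were present in both arms: 14 of 15 were above 0, their summed level was 1366 to 1482 FPKM (knockdown) against 830 to 836 (control), 11 rose and 2 fell, and TH was listed at 0 in all libraries. Mesenchymal markers, genes of the flat cells that this line can also hold, all fell (20 of 20), from a summed 4365 to 4430 FPKM in the control to 750 to 777 in the knockdown, and 5 of the 20 reached a mean of 1 FPKM, the minimum for testing, through the control alone. Of 10 immune cell markers, 4 were at 0 throughout, CD3E and AIF1 among them, and CD68 was the only one to reach 1 FPKM. CD68 was lower (2.55 ± 0.404 against 14.7 ± 0.617 FPKM, SD, n = 3 each), while CD14 and NKG7, both under 0.5 FPKM in the mean of either group, were called higher with no minimum. The summed level of the 10 was 2.91 to 3.83 FPKM (knockdown) against 14.1 to 15.4 (control). Beside these lists, 30.5% of all tested genes were called higher and 35.9% lower. With no minimum the shares were 23.2% and 26.5%. The arms thus differed in these markers as well as in TARDBP, and the part of these marker lists in the results below was not tested. In bulk RNA, fewer cells of a type and less RNA per cell cannot be told apart.

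Most of the expressed members were lower in the knockdown, and a few were clearly higher. A gene was tested when its mean over the 6 libraries was 1 FPKM or more, which held for 21 members. By limma on log2(FPKM + 1) with Benjamini-Hochberg adjustment over 13434 genes, 14 fell, 3 rose and 4 did not pass an adjusted p of 0.05. Calls were common in this comparison, at 66.3% of all tested genes in either direction, 35.9% lower and 30.5% higher. The members' 17 calls among 21 must be read against that level. For the same 17 the groups did not overlap, which held for 70.8% of all tested genes. A fall of at least 1 in log2(FPKM + 1) was called for 7 of the 21, against 7.95% of all tested genes. A rise of at least 1 was called for 1, against 3.31%. The FPKM means of IFIT3, IFITM3, IRF1, OAS3 and HERC5 differed more than 2-fold without reaching this limit, because 1 FPKM is added. The median log2 fold change of the 21 was -0.54, beside -0.020 for all tested genes. IFIT3, IFI44, SAMD9 and SAMD9L reached the mean of 1 FPKM through only one group and so had to differ, which makes these counts a description of the members that passed and not of all 39. With no minimum, 38 members could be tested. Then 20 were lower, 5 higher and 13 not called, with a median of -0.32 beside 0.0026, and 49.7% of 20090 genes were called (26.5% lower, 23.2% higher). Groups lay apart for 26 of the 38, against 57.7% of all genes. A change of at least 1 in log2(FPKM + 1) was then called lower for 9 members and higher for 1, against 5.69% and 2.3% of all genes. XAF1 was listed at 0 in every library. The summed level of all 39 members was 121 to 124 FPKM (knockdown) against 164 to 165 (control).

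**Figure D1:**
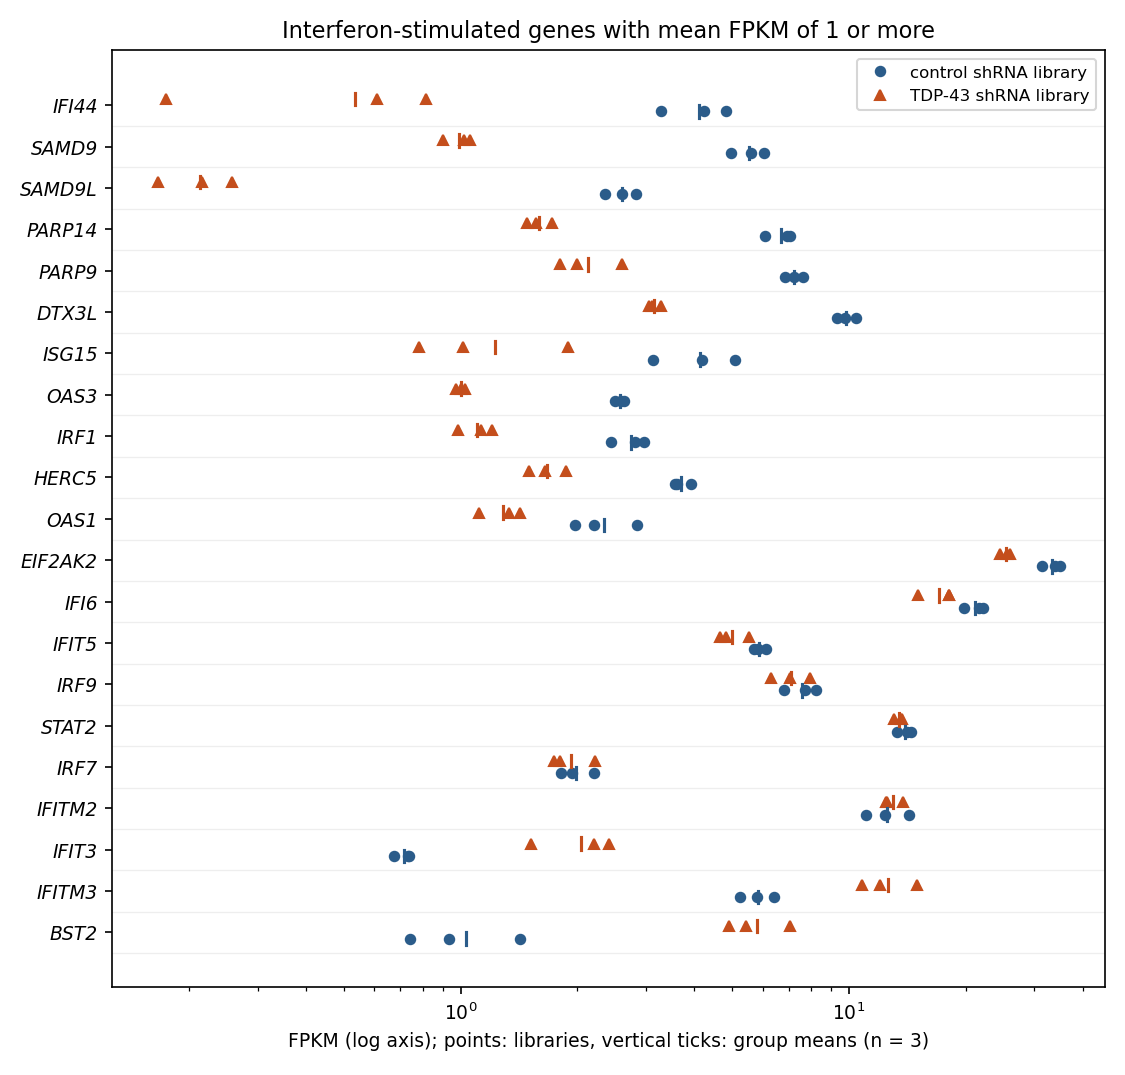
FPKM of the 21 tested members on a log axis, ordered from the largest fall to the largest rise, with 1 point per library and a tick at each group mean. The groups lie apart for 17 members and overlap for IRF9, STAT2, IRF7 and IFITM2.

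**Figure D2:**
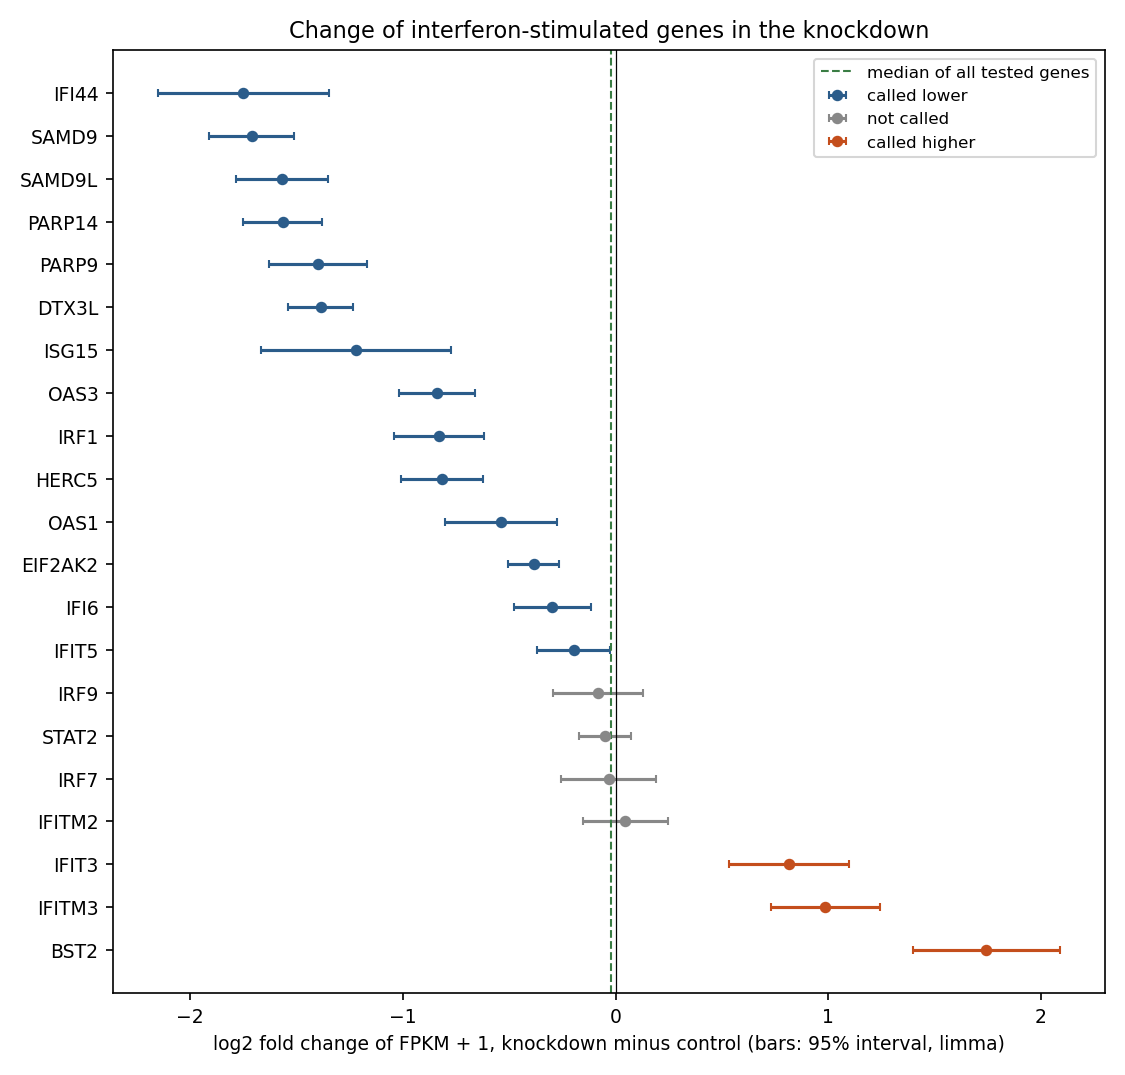
Log2 fold change of each tested member with its 95% interval from limma, coloured by call; the dashed line is the median of all tested genes at -0.020. Members run from IFI44 at -1.75 to BST2 at 1.74.

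Among the genes that read and relay the signal, 3 of the 4 transcription factors did not pass the test. Of all tested genes 66.3% passed it in either direction. STAT2, a subunit of the interferon-activated complex, stood at 13.6, 13.1 and 13.7 FPKM in the knockdown and at 13.3, 14.5 and 14.2 in the control. Its log2 fold change was -0.051 with a 95% interval of -0.17 to 0.072. IRF9, which brings the complex to DNA, stood at 7.92, 7.07 and 6.305 FPKM against 6.80, 7.70 and 8.21 (-0.083, interval -0.29 to 0.13). Of the 50-base words of its longest GENCODE v29 transcript, 100% also occur in AL136295.5, a gene with overlapping exons on the same strand. The level of IRF9 is therefore uncertain. IRF7, a factor that amplifies interferon production, stood at 1.81, 2.22 and 1.74 FPKM against 1.94, 1.81 and 2.21 (-0.032, interval -0.26 to 0.19). The groups overlapped for all 3, and the intervals leave room for small changes. IRF1, a transcription factor induced by interferon gamma, was different: 0.982, 1.21 and 1.13 FPKM in the knockdown lay below 2.45, 2.81 and 2.97 in the control. It fell by 0.83 (standard error 0.092, limma adjusted p = 6.18e-05). All 4 factors were above 1 FPKM in the control.

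Of the 3 sensors 2 were lower with no minimum, where 26.5% of all genes were called lower. Only EIF2AK2 reached the minimum of 1 FPKM. IFIH1 (MDA5), a helicase that detects long double-stranded RNA, stood at 0.0255, 0.0340 and 0.0188 FPKM in the knockdown and at 0.514, 0.406 and 0.274 in the control, 15.3 times as much in the mean. With no minimum it fell by 0.44 (limma adjusted p = 0.00138). EIF2AK2 (PKR), the kinase that stops translation when it binds double-stranded RNA, had the highest level of all members, at 26.1, 24.5 and 25.5 FPKM against 34.9, 34.0 and 31.4. It fell by 0.39 (standard error 0.053, limma adjusted p = 2.29e-04), and the knockdown held 0.758 times the control level. DHX58 (LGP2), a helper of IFIH1, did not exceed 0.0756 FPKM in any library.

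The IFIT genes, which encode proteins that bind foreign RNA ends and lie side by side on chromosome 10 (89283694 to 89421001, GRCh38), did not move as a block. IFIT3 stood at 2.21, 1.52 and 2.41 FPKM in the knockdown and at 0.676, 0.732 and 0.738 in the control. All knockdown values lay above the control, the means differed 2.86-fold, and IFIT3 rose by 0.82 (standard error 0.12, limma adjusted p = 4.24e-04). IFIT2 was under the minimum, at 1.21, 0.947 and 1.19 FPKM against 0.403, 0.515 and 0.348. With no minimum it rose by 0.57 (limma adjusted p = 9.01e-04). Exons of IFIT2 overlap those of AL353751.1 on the same strand and those of LIPA on the other. AL353751.1 holds 8.4% of the 50-base words of the longest IFIT2 transcript in GENCODE v29. IFIT1 stood at 1.14, 1.02 and 1.24 FPKM against 0.661, 0.913 and 0.855. Its rise of 0.24 with no minimum had a limma adjusted p of 0.0434, lost when knockdown library 1 or 3 or control library 1 or 3 was left out (adjusted p from 0.0781 to 0.113). When library sums were made equal IFIT1 was called lower instead (-0.21, limma adjusted p = 0.0490). With 6 small RNAs left out of the sums the rise was not called (0.22, limma adjusted p = 0.0510). IFIT1B, the related gene between IFIT3 and IFIT1, was also higher, at 0.846, 0.458 and 0.736 FPKM against 0.104, 0.217 and 0.0412 (limma adjusted p = 0.00318 with no minimum). IFIT5, at the end of the row, went the other way. It stood at 4.83, 4.67 and 5.55 FPKM against 5.70, 6.11 and 5.82, and fell by 0.20 (standard error 0.075, limma adjusted p = 0.0457). That call was lost in 5 of the 6 fits that left out a library, all except the one without knockdown library 3 (adjusted p from 0.0800 to 0.14), and with no minimum (adjusted p = 0.0729).

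The OAS enzymes respond to double-stranded RNA by making a short RNA-like messenger that leads to RNA decay. OAS1 and OAS3, neighbours on chromosome 12, were both lower. OAS1 stood at 1.34, 1.11 and 1.42 FPKM against 2.85, 2.2 and 1.97 and fell by 0.54 (standard error 0.12, limma adjusted p = 0.00306). OAS3 stood at 0.975, 1.00 and 1.02 FPKM against 2.50, 2.59 and 2.64 and fell by 0.84 (standard error 0.078, limma adjusted p = 2.05e-05). OAS3 had tight groups far apart, whereas the control values of OAS1 were spread. OAS2, next in the row, was listed at 0 throughout the knockdown and at no more than 0.0326 FPKM in the control. OASL, a relative without the enzyme activity, was at 0, 0 and 0.0345 FPKM against 0.0977, 0.294 and 0.348. The MX GTPases, which trap viral particles, were scarce. MX1 stood at 0.1, 0.0716 and 0.0366 FPKM against 0.206, 0.355 and 0.493, 5.06 times as much in the control. It fell by 0.33 with no minimum (limma adjusted p = 0.0119), and the call was lost without knockdown library 3 (adjusted p = 0.0562) or control library 2 (adjusted p = 0.0536). The same was so for OASL (adjusted p = 0.0178), lost in every such fit except the one without control library 1 (adjusted p from 0.0552 to 0.0794). MX2 was at 0 in the knockdown and reached 0.0686 FPKM in the control.

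ISG15 is a ubiquitin-like protein that is joined to other proteins by an enzyme chain ending in HERC5 and is removed by USP18. ISG15 stood at 1.89, 1.02 and 0.783 FPKM in the knockdown and at 4.20, 3.14 and 5.11 in the control. The spread was wide in both arms, but the groups did not meet, and ISG15 fell by 1.22 (standard error 0.20, limma adjusted p = 5.98e-04). HERC5 stood at 1.65, 1.5 and 1.87 FPKM against 3.57, 3.60 and 3.91 and fell by 0.81 (standard error 0.084, limma adjusted p = 3.94e-05). HERC6, the related gene beside it on chromosome 4, stood at 0.258, 0.595 and 0.502 FPKM against 1.26, 1.56 and 1.44 and fell by 0.74 with no minimum (limma adjusted p = 0.00111). USP18, which also dampens the interferon receptor, stood at 0.192, 0.0632 and 0.177 FPKM against 1.91, 1.15 and 1.59, a 10.8-fold difference of the means. It fell by 1.15 with no minimum (limma adjusted p = 2.43e-04). Of the 50-base words of the longest USP18 transcript in GENCODE v29, 23.0% also occur in USP41, so its level is uncertain. With no minimum these 4 genes were all called lower, where 26.5% of all genes were called lower. HERC6 and USP18 could be tested only there. UBA7, the first enzyme of the chain, was lower too, at 0.307, 0.483 and 0.433 FPKM against 1.65, 1.42 and 1.32 (limma adjusted p = 2.14e-04 with no minimum). UBE2L6, the enzyme that follows it, did not pass the test, at 19.9, 22.2 and 21.1 FPKM against 21.4, 21.3 and 22.8 (-0.048, interval -0.17 to 0.078).

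Of the membrane proteins 2 of 3 tested were higher, and 2 of 4 with no minimum. Of all genes 30.5% and 23.2% were called higher in these fits. The other called rises among members were in IFIT genes. BST2 (tetherin), which holds budding virus particles at the cell surface, stood at 7.07, 5.43 and 4.91 FPKM in the knockdown and at 1.42, 0.743 and 0.935 in the control. The lowest knockdown value was well above the highest control value, the means differed 5.61-fold, and BST2 rose by 1.74 (standard error 0.15, limma adjusted p = 1.21e-05). It was the largest change of any member upward. IFITM3, which blocks virus entry from endosomes, stood at 10.8, 14.9 and 12.0 FPKM against 5.82, 6.40 and 5.26 and rose by 0.99 (standard error 0.11, limma adjusted p = 7.19e-05). That call was lost when library sums were made equal (0.18, adjusted p = 0.185) and kept when 6 small RNAs were left out of the sums (0.96). Its neighbour IFITM2 did not pass the test, at 12.5, 13.8 and 12.6 FPKM against 12.4, 11.1 and 14.3 (0.046, interval -0.16 to 0.25). IFITM1 stayed at or under 0.229 FPKM. The 3 lie within 19.9 kb on chromosome 11 and share sequence: 14.4% of the 50-base words of the longest IFITM3 transcript in GENCODE v29 also occur in IFITM2, and IFITM1 and IFITM2 have overlapping exons. Their levels are uncertain where reads could be split between them.

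The largest falls among tested members were in IFI44, SAMD9, SAMD9L, PARP14, PARP9 and DTX3L. PARP9 and DTX3L, partners that modify histones, start beside each other on chromosome 3 and run in opposite directions, with exons that overlap. DTX3L stood at 3.06, 3.11 and 3.27 FPKM in the knockdown and at 9.76, 10.5 and 9.32 in the control. It fell by 1.39 (standard error 0.067, limma adjusted p = 2.85e-07). PARP9 stood at 2.60, 2.00 and 1.80 FPKM against 6.84, 7.60 and 7.24 and fell by 1.40 (standard error 0.10, limma adjusted p = 3.84e-06). PARP14, a further member of the family on the same chromosome, stood at 1.49, 1.57 and 1.72 FPKM against 7.03, 6.93 and 6.07 and fell by 1.57 (standard error 0.081, limma adjusted p = 4.56e-07). The 3 genes were at 0.238 to 0.320 times the control level, with no overlap between groups. The library kit keeps strand, but whether counting used it is not given in the sources used here. Reads from the overlap of PARP9 and DTX3L therefore cannot be assigned.

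SAMD9 and SAMD9L, restriction factors of poxviruses that also slow cell growth, lie next to each other on chromosome 7 (93099513 to 93148369). SAMD9 stood at 1.06, 0.901 and 1.02 FPKM against 5.61, 6.03 and 4.97 and fell by 1.71 (standard error 0.088, limma adjusted p = 4.28e-07). SAMD9L stood at 0.216, 0.166 and 0.257 FPKM against 2.60, 2.84 and 2.36 and fell by 1.57 (standard error 0.095, limma adjusted p = 1.23e-06). The fold between means was larger for SAMD9L (12.2) than for SAMD9 (5.58), although its log2 value is smaller, because adding 1 FPKM understates the change of low genes. IFI44, whose product is known to dampen interferon signalling, stood at 0.174, 0.609 and 0.816 FPKM against 4.83, 4.23 and 3.28 and fell by 1.75 (standard error 0.18, limma adjusted p = 3.19e-05). Its neighbour IFI44L stood at 0.151, 0.162 and 0.167 FPKM against 0.819, 0.700 and 0.637, and fell by 0.57 with no minimum (limma adjusted p = 1.52e-04). In both pairs the neighbours moved the same way.

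TRIM22, a ubiquitin ligase that restricts retroviruses, had the widest gap among members above 0 in any knockdown library, 38.9-fold between means. It stood at 0, 0.0401 and 0.0445 FPKM in the knockdown and at 0.963, 1.16 and 1.17 in the control, and fell by 1.03 with no minimum (limma adjusted p = 1.30e-05). IFI6, a mitochondrial survival protein and the member with the second highest level in the control, moved little. It stood at 15.1, 18.1 and 18.1 FPKM against 21.6, 19.8 and 22.2 and fell by 0.30 (standard error 0.079, limma adjusted p = 0.00924), a call lost with quantile normalization (-0.17, adjusted p = 0.117). RSAD2 (viperin), which makes a chain-terminating nucleotide, stood at 0.340, 0.349 and 0.464 FPKM against 0.674, 0.474 and 0.347, and the groups overlapped. CMPK2, which lies beside RSAD2 and supplies its substrate, was lower, at 0.445, 0.569 and 0.467 FPKM against 1.19, 1.45 and 1.83 (limma adjusted p = 0.00111 with no minimum). ISG20, an RNA exonuclease gene, stood at 0.442, 0.391 and 0.256 FPKM against 0.444, 0.329 and 0.463. IFI27 stood at 0, 0.393 and 0.257 FPKM against 0.248, 0.738 and 0.869. Both sets of values overlapped, and neither gene passed with no minimum (adjusted p = 0.571 and 0.112). IFI35 reached 0.222 FPKM among knockdown and 0.441 among control libraries, with overlap.

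**Figure D3:**
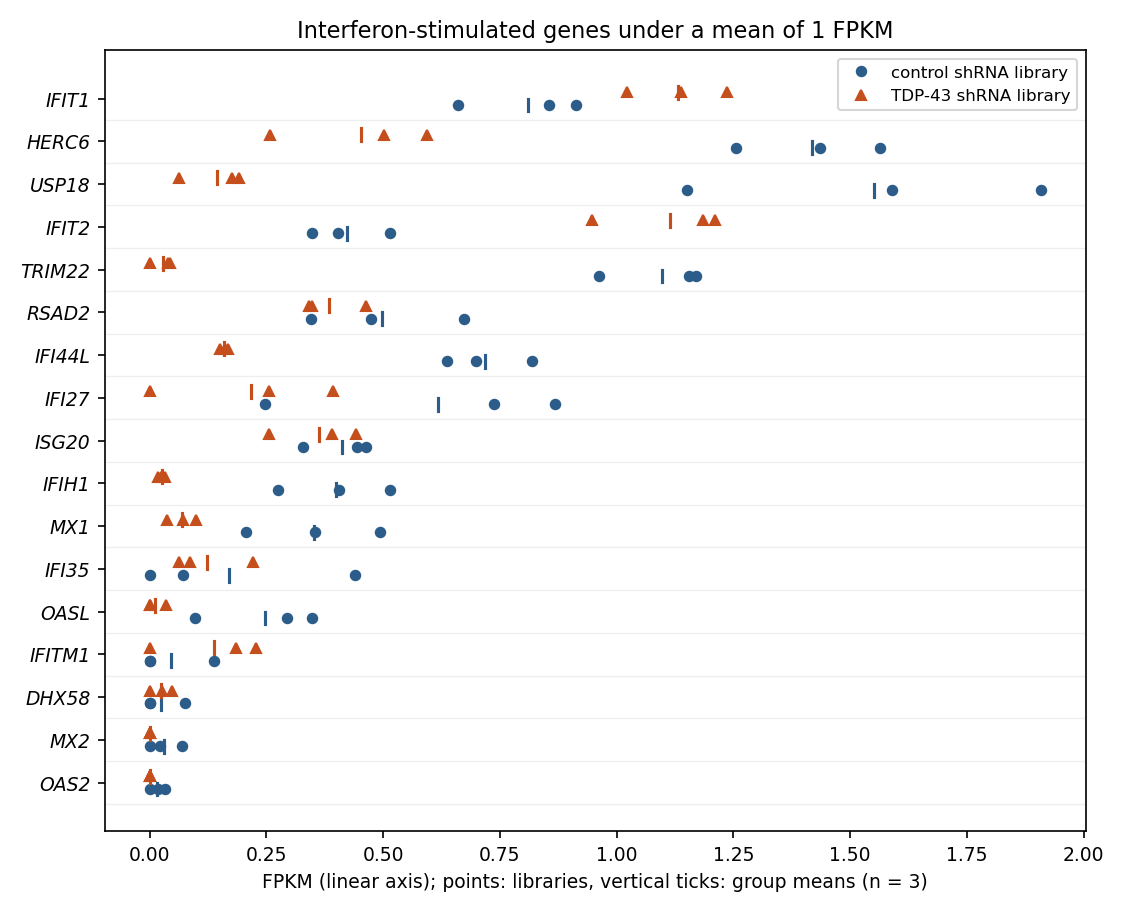
FPKM of the 17 members with a mean above 0 and under 1 FPKM, on a linear axis, with 1 point per library and a tick at each group mean. IFIT1 and IFIT2 are higher in the knockdown, while HERC6, USP18, TRIM22, IFI44L, IFIH1, MX1 and OASL are lower; the other 8 overlap.

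Few interferon genes themselves were detected. Of 22 listed, 12 were at 0 in every library, among them IFNG, and IFNB1 did not exceed 0.184 FPKM. The 2 that were tested fell, both having reached the minimum through the control alone. IFNE, an interferon of epithelial tissue, was listed at 0 throughout the knockdown, while the control had 3.98, 4.25 and 4.43 FPKM. Among all genes, 50 share this pattern of 0 throughout the knockdown with at least 1 FPKM throughout the control, and an exact 0 can be a failed estimate. IFNK stood at 0.967, 0.745 and 0.718 FPKM against 1.70, 1.28 and 0.966 (limma adjusted p = 0.0447). The groups met, and that call was lost without knockdown library 2 or 3 or control library 1 or 2 (adjusted p from 0.0869 to 0.146) and with no minimum (0.0605).

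Receptors and kinases of the pathway were mostly lower by modest amounts: of 10 tested, 8 fell, 1 rose and 1 did not pass, with a median of -0.43. Among all tested genes, 35.9% were called lower and 30.5% higher, with a median of -0.020. JAK2 and JAK1, the kinases bound to the receptors, fell by 0.74 and 0.71, IFNGR2 by 0.61 and STAT3 by 0.51 (limma adjusted p from 8.03e-06 to 1.26e-04). JAK1 stood at 25.3 ± 1.60 FPKM in the knockdown and at 42.1 ± 1.83 in the control (SD, n = 3 each). TYK2 was the single gene that rose (0.22, limma adjusted p = 0.0396). It lost the call in 5 of the 6 fits without a library, all except the one without knockdown library 3 (adjusted p from 0.053 to 0.104). The call was also lost with no minimum (adjusted p = 0.0679) and with equal sums after leaving out 6 small RNAs (0.0793). Once library sums were made equal over all genes, TYK2 was called lower (-0.59, limma adjusted p = 2.22e-04).

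Of 11 tested sensing genes 7 fell and 0 rose, with a median of -0.39. Of all tested genes 66.3% were called, 35.9% lower and 30.5% higher, so 7 calls among 11 are near the common share. The same shares stand beside the inhibitors and effectors below. IFI16, a nuclear DNA sensor, stood at 0.0903 ± 0.0135 FPKM against 10.1 ± 0.785 and fell by 3.34, TMEM173 (STING), the adaptor of cytoplasmic DNA sensing, fell by 1.28, DDX58 (RIG-I) by 0.61 and the kinase gene TBK1 by 0.59. IFI16 and TMEM173 reached the minimum through the control alone, as did SOCS1 and TRIM21 among the inhibitors. ADAR, which edits double-stranded RNA and so hides it from IFIH1, did not pass the test, at 82.7 ± 3.21 against 81.5 ± 0.274 FPKM (0.021, interval -0.072 to 0.11). Of 12 tested inhibitors of the pathway 7 fell and 3 rose, with a median of -0.26. TRIM21, SOCS3, SOCS1 and IRF2 fell by 1.62, 1.11, 1.10 and 0.77. SOCS1 and SOCS3 are themselves induced by cytokine signals. The 3 that rose were PIAS1, PIAS2 and PIAS4 (0.36, 0.23 and 0.37), each of them below 0 once library sums were made equal and above 0 when 6 small RNAs were left out of the sums. A list of interferon effectors shares IFI16, TRIM25 and ADAR with the sensing genes. Of its 17 tested genes 12 fell and 0 rose, IFI16 and TRIM25 being counted in both lists. The largest falls were in IFI16, SP100, GBP2 and SLFN5. These 4 and 2 more of the 12 reached the minimum through the control alone and so had to fall. With no minimum 16 of 28 fell and 1, IFIT1B, rose, with a median of -0.43. Of all genes 26.5% were then called lower and 23.2% higher. SP100, a nuclear body protein, stood at 0.0799 ± 0.107 against 8.40 ± 0.678 FPKM, and GBP2, a guanylate-binding protein, at 0.453 ± 0.0416 against 10.8 ± 0.710. SLFN5 was listed at 0 in the knockdown and at 3.87, 3.70 and 3.61 FPKM in the control.

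**Figure D4:**
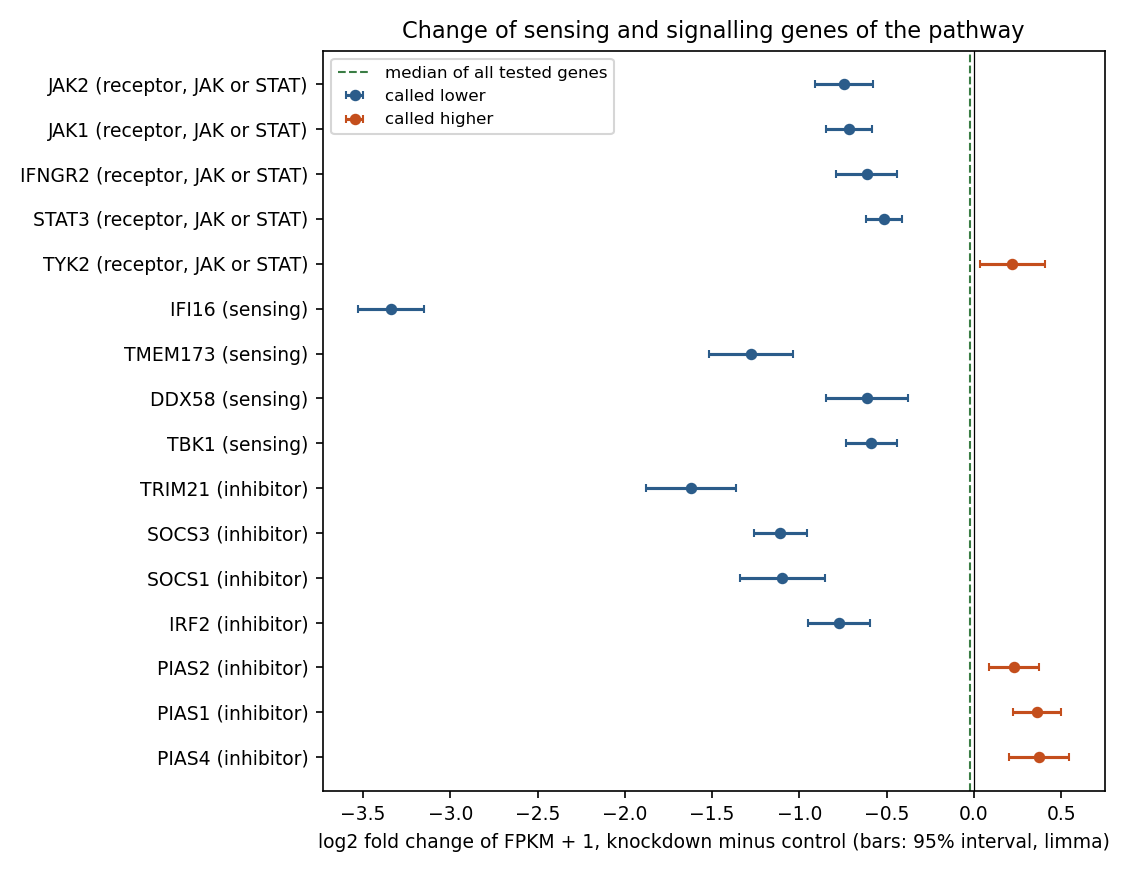
Log2 fold change with 95% interval from limma for receptor, kinase, sensing and inhibitor genes, ordered within each of the 3 lists: the 4 called genes with the largest change in each list and every gene called higher. IFI16 lies farthest from 0 at -3.34, and the 4 rises are TYK2, PIAS1, PIAS2 and PIAS4.

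Class I antigen presentation, the other arm of interferon-induced genes, gives a comparison. All 18 tested of its 23 listed genes fell, with a median of -1.23, where 14 of the 21 tested members fell and the median was -0.54. Among all tested genes 35.9% were called lower, with a median of -0.020. Of the 18, 6 reached the minimum through the control alone and so had to fall, TAP1, PSMB8 and ERAP2 among them. With no minimum 20 of 22 fell and 2 were not called, with a median of -1.13. The share of all genes called lower was then 26.5%. The difference between the lists was not tested. Its 4 largest falls, in HLA-C, PSMB8, TAP1 and ERAP2, ran from 1.92 to 2.98 on the log2 scale, and IFI44, the lowest member, was at -1.75.

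The scaling of the libraries moved these values together. When library sums were made equal, the all-gene median shifted by -0.80, 2 members were higher and 18 lower, and all genes split into 522 higher and 11689 lower, against 4092 and 4817 on the deposited scale. With equal sums after leaving out 6 small RNAs (RPPH1, RMRP, RN7SK, SNORD3A, RN7SL1 and RN7SL2), the shift was only -0.028, with 3784 genes higher and 5154 lower, and 3 members higher and 14 lower. The shift with equal sums was thus seen only with these 6 RNAs in the sums. Relative to the median of all genes, the members' median with equal sums over all genes was -0.44, beside -0.52 on the deposited scale. There STAT2, IRF9, IRF7 and IFITM2 became -0.89, -0.88, -0.64 and -0.79, close to the -0.82 of the median gene. With quantile normalization the all-gene median shifted by 0.11, 58.7% of calls were higher against 45.9%, and the members split into 3 higher and 12 lower.

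**Figure D5:**
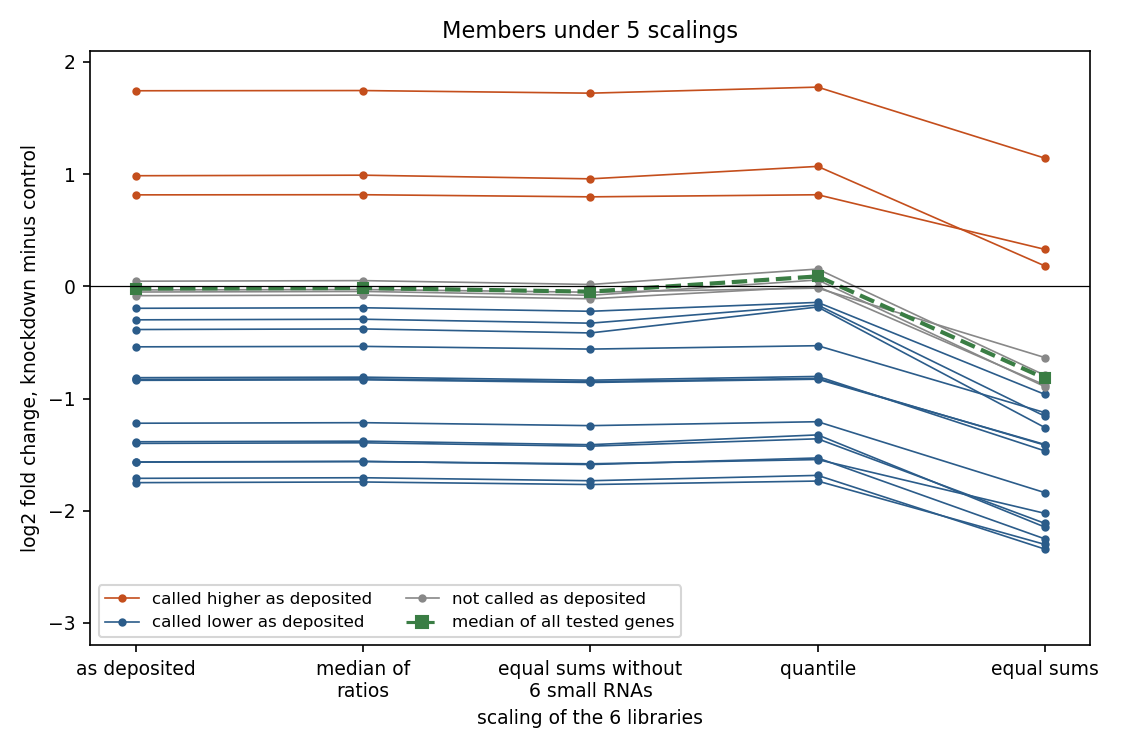
Log2 fold change of the 21 tested members under 5 scalings of the libraries, with the median of all tested genes as a dashed line. With equal sums the whole set moves down with the median gene, and BST2, IFIT3 and IFITM3 stay above 0.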

How the data were processed

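Poly(A) RNA was sequenced from 6 libraries of SH-SY5Y cells, 3 per arm. Gene-level FPKM were deposited. TopHat2 2.1.0, SAMtools, Cuffdiff 2.2.1 and hg38 are named per the submitters' processing notes; annotation and strand setting: not given in the sources used here. Groups and replicate numbers came from the sample titles.

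Values were taken as log2(FPKM + 1). Genes averaging at least 1 FPKM were compared by limma 3.58.1 (R 4.3.3) with an intensity trend, two-sided, adjusted by Benjamini-Hochberg over 13434 genes. The script was tested on simulated data.

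All members are accounted for. Those under 1 FPKM are named where a group mean was 0.3 FPKM or more, and others by range. From each pathway list up to 4 called genes with the largest change are named. IFNB1, IFNG, ADAR, IFIT1B, UBA7, UBE2L6, CMPK2, TYK2, the PIAS genes and OASL were chosen after their values were seen. Some results are not reported here. The members and lists were chosen with earlier results of these data known. Positions are from GENCODE v29 on GRCh38 and promoters from RefSeq. Alternatives were other pseudocounts, minimum levels, scalings, a replicate block, limma without trend or robust, and the omission of single libraries. Chosen after seeing the data: a fit without genes at 0 in any library, and fits with no minimum under each rescaling or without each library. Plots and other steps used Python 3.11.15, numpy 2.4.6, pandas 2.3.3, scipy 1.17.1 and matplotlib 3.10.9.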

Additional observations from a re-analysis of the deposited data

How the results depend on the processing

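The number of members called higher (3) was 5 with a minimum mean of 0.1 FPKM, 5 with no minimum and 1 with a minimum of 5 FPKM, and the number called lower (14) was 4 with a minimum of 5 FPKM, where 8 members remain for the test. Leaving out each library in turn gave 3 higher and 13 to 14 lower, and a median of -0.62 to -0.43. The members' median of -0.54 was -0.80 and -0.66 with pseudocounts of 0.1 and 0.5, -0.39 with a minimum of 0.1 FPKM, -0.32 with no minimum, -0.14 with a minimum of 5 FPKM and -1.26 with columns rescaled to equal sums, where all genes split into 522 higher and 11689 lower. With equal sums after leaving out 6 small RNAs it was -0.56, with 3784 genes higher and 5154 lower. TARDBP kept its direction and call in every fit. Of the 21 tested members, BST2, IFIT3 and 12 of those called lower kept their direction and call in every fit that tested them. IFIT5, IFI6 and IFITM3 lost the call in some. IFIT5 had an adjusted p of 0.0552 with a minimum of 0.1 FPKM and 0.111 with quantile normalization. Signs changed for genes near 0: STAT2 was 0.057 with quantile normalization, leaving out single libraries moved IRF7 between -0.10 and 0.021 (above 0 without knockdown library 3, 0.012, or control library 3) and IFITM2 between -0.036 (without control library 2) and 0.13, and IFITM2 was -0.79 with equal sums. With equal sums TYK2, PIAS1, PIAS2 and PIAS4 were -0.59, -0.49, -0.62 and -0.42, and IFIT1 with no minimum was -0.21. The causes were not tested beyond what the construction of each alternative shows. Same-numbered libraries did not deviate together (correlations of -0.18 to -0.018). With 3 libraries per arm, each centred on its arm's mean, this cannot show whether the numbers pair the samples. With the replicate number as a block 3 members were higher and 13 lower, IFIT5 losing its call (adjusted p = 0.0791). The unknown depth limits most the members under 1 FPKM.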

Other observations

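The chromosomal neighbours of the called members went in both directions. For each of the 17 called members the nearest tested protein-coding gene on either side that is no member was taken, which gave 26 genes at distances from 0.029 to 2642 kb. Of these 10 were higher, 9 lower and 7 not called, with a median log2 fold change of 0.042, where 66.3% of all tested genes were called. For the 14 members that fell there were 21 such genes, 8 higher and 7 lower, and for the 3 that rose there were 6, 3 higher and 2 lower. All tested genes were 30.5% higher and 35.9% lower. Against the direction of the member, RPH3A and DTX1, on either side of OAS1 and OAS3, rose by 1.65 and 1.02. So did CDK6, 263 kb from SAMD9, by 0.55, and PARP15 and HSPBAP1, on either side of PARP14, by 0.30 and 0.44. FAS, 312 kb from IFIT3, fell by 1.73, also against the direction of the member. In the direction of the member, HES4 and AGRN, on either side of ISG15, fell by 0.51 and 0.74, LIPA next to IFIT5 fell by 0.44, PIGY next to HERC5 fell by 0.41, and DNAJB4 and ADGRL2, 632 and 2642 kb from IFI44, fell by 1.33 and 0.91. B4GALNT4, 42 kb from IFITM3, rose by 1.07, also in the direction of the member. MVB12A, 0.074 kb from BST2 on the side of its start, stood at -0.070 and was not called. These genes were named after their values were seen, and no test of the pattern was run.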
